A study of Bos taurus with 8 samples.

Results

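Fibrillin-1 (FBN1), fibulin-1 (FBLN1), microfibril-associated protein 5 (MFAP5), fibronectin (FN1), SPARC, tenascin-C (TNC), thrombospondin-1 (THBS1) and periostin (POSTN) are secreted glycoproteins of the extracellular matrix. They were followed as the 38 probes that carry one of these 8 gene names in the scanner files, out of 51282 probes and 16583 named genes on the array. The genes were chosen by how their signals differed between treated and control arrays of these same data, so their differences from control and between proteins are given below as a description, without a test. Of the 38 probes, 37 passed the background filter, which asks that a probe be well above background throughout at least 1 group, and 35 were above background on all 8 arrays. MFAP5 had 1 probe that did not pass, and the FBLN1 probes were near background.

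Fibrillin-1 polymerises into microfibrils, the thin filaments that scaffold elastic fibres and hold latent TGF-beta, and fibulin-1 and MFAP5 are bound along such fibres. Fibronectin is the adhesive fibril on which cells assemble other matrix proteins. SPARC, tenascin-C, thrombospondin-1 and periostin are matricellular proteins: they add little structure of their own but change how cells attach to, deposit and remodel the matrix, and they are known from wounds and scars, including the membranes that can form on the retina. Müller glia are the radial support cells of the retina, and in the scarring retina they can take on features of matrix-producing cells.

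The cells came from bovine eye ball, are labelled as primary Müller glia, and were grown in DMEM for 18 to 21 days. The series asked what 2 HIV-1 proteins do to them: 3 arrays (letters A, B and C) are labelled with TAT, the viral transactivator, at 100 ng/ml, 3 (A, B and C) with gp120, the envelope glycoprotein, at 60 ng/ml, both for 24 h, and 2 (A and B) are controls. The treatment text is the same for every sample and names both proteins, so the groups follow the titles, and the extraction text speaks of astrocytes. The labels do not say what a letter marks or how many animals were used, so every error below measures only the spread between these samples, which may be technical.

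The 8 arrays share 1 slide, with 55.46% to 64.62% of spots well above background and 0 saturated spots on each. Values are log2 signals minus the array's 75th percentile, so 0 marks that percentile and a step of 1 is a doubling. Of 13 Müller glia markers with a probe, 7 were well above background on all arrays, among them GLUL, SLC1A3, VIM and AQP4, while RLBP1, GFAP, KCNJ10, SOX2, RGR and PDGFRA were not, RGR on 0 arrays. Of 11 fibroblast and stroma markers 10 were above background on all arrays, and so were 8 of 8 for pericytes and smooth muscle and 9 of 10 for microglia and macrophages. In such bulk cultures fewer cells of a type and less RNA per cell cannot be told apart. Control A, control B, TAT A and gp120 A lay in row 1 of the slide and the others in row 2, and 2 arrays, gp120 B and C, came from a separate scan, with a detector at 471 V and not 431 V.

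Across the 8 genes, signals were mostly higher after TAT than in control, and less evenly so after gp120. At the brightest probe of each gene, 7 of 8 TAT differences were above 0, with a median of 0.54, beside a median of -0.02 over all probes tested. For gp120, 6 of 8 were above 0, with a median of 0.23, beside 0.00. Of the 8 brightest probes, 4 (FBN1, FN1, SPARC and TNC) had every TAT array above both controls, as did 16 of the 37 kept probes, where the background over all probes was 5.47%. Every gp120 array lay above both controls at 1 brightest probe (FBN1) and at 4 of 37 kept probes, where the background was 7.92%. These shares follow from how the genes were chosen.

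No difference of these genes passed the adjusted threshold of 0.05 in limma, fitted over 31153 probes. The background was 0.0% for TAT against control, 0.0% for gp120 against control and 0.0% for TAT against gp120, with 413, 1310 and 1240 probes at an unadjusted p under 0.05. The 95% interval of a typical probe reached 0.76 to either side of the difference from control. Most differences described here are smaller than that.

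**Figure D1:**
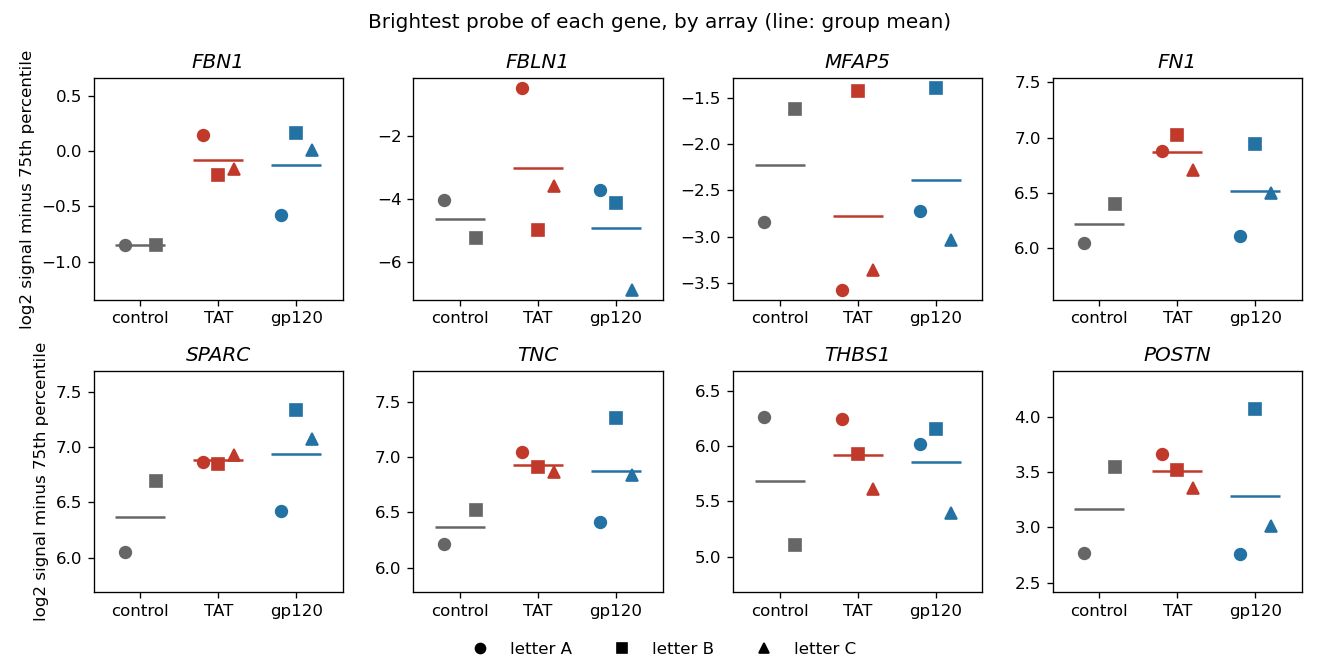
Log2 signal minus the array's 75th percentile (y axis) of the brightest probe of each gene on the 2 control, 3 TAT and 3 gp120 arrays, with the letter as the symbol and the group mean as a line; y axes differ between panels, and levels of different genes are not comparable. In FBN1, FN1, SPARC and TNC every TAT array lies above both controls; in MFAP5 the letter B arrays lie above the others in every group.

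FBN1 encodes the core protein of the microfibril and had 1 probe, well above background on all arrays, at chr10:63596632-63596691 on the plus strand (build HGSC Btau_3.1, which holds for every position here). Its signal was -0.85 on control A and -0.85 on control B, 0.14, -0.22 and -0.16 on TAT A, B and C, and -0.58, 0.16 and 0.01 on gp120 A, B and C. All 6 treated arrays lay above both controls, with gp120 A closest to them. The TAT difference was 0.77 ± 0.28 (SE; 95% interval 0.13 to 1.41), or 1.71-fold, and the gp120 difference was 0.72 ± 0.28 (95% interval 0.08 to 1.35), or 1.64-fold. The controls stood 0.01 apart. Among the brightest probes, FBN1 was the member whose 95% intervals lay above 0 for both proteins, before any adjustment for the number of probes. Between the proteins it differed by 0.06 ± 0.25 (95% interval -0.51 to 0.63). Since all of this rests on 1 probe, the start of its sequence in the scanner files, which also gave the sequences shown for the other genes, is printed:
FBN1, bases 1 to 30 of the probe: gaactgaatttttcccccaatcagaatctt

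FBLN1 encodes a calcium-binding glycoprotein of microfibrils and elastic fibres, and its 2 probes did not follow each other. At the brighter one (chr5:122786446-122786505, plus strand, above background on 6 arrays) the signal was -4.02 and -5.24 on control A and B, -0.49, -4.98 and -3.58 on TAT A, B and C, and -3.70, -4.12 and -6.87 on gp120 A, B and C. TAT A stood far above the rest, and the groups overlapped. The differences were 1.62 ± 1.36 for TAT and -0.27 ± 1.36 for gp120, both well within their errors. Without TAT A the TAT difference was 0.36, and the gp120 difference was 0.34 without control A and 0.72 without gp120 C. The other probe, from base 1002 of the transcript, ranged from -5.12 to -4.18 over all arrays and gave 0.09 ± 0.32 and 0.27 ± 0.32. FBLN1 was therefore not measured well enough here to place its level in any order.

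MFAP5 encodes a small glycoprotein that binds fibrillin, and its signal varied with the letter. Its brighter probe (chr5:108600872-108600931, plus strand) read -2.84 and -1.62 on control A and B, -3.57, -1.43 and -3.36 on TAT A, B and C, and -2.72, -1.40 and -3.03 on gp120 A, B and C. In each group the B array was the highest, and the groups overlapped fully. The differences were -0.55 ± 0.75 for TAT and -0.16 ± 0.75 for gp120, the lowest of the 8 genes for TAT. Without control B they were 0.05 and 0.45, without control A -1.16 and -0.76, and without TAT B the TAT difference was -1.23. Without gp120 C the gp120 difference was 0.17. With the letter taken into the model the TAT difference was -0.25 ± 0.26. The second passing probe, which overlaps the first by 52 bases with 0 mismatches, gave -0.39 and -0.07, so it repeats the same target and is no separate evidence. The start of the stretch they share is:
MFAP5, first 30 shared bases: cttctccatatcatagacccggtagataaa

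The letters were tested over all probes with the group in the model. The genes were chosen with the same arrays and their same-letter pairs in view, so the letter calls are no separate support. By limma's F test, 1 of the 8 brightest probes (MFAP5, adjusted p = 0.0124) and 3 of 37 kept probes (8.11%) passed at 0.05, where the background was 13.2% (4106 of 31153 probes). The difference between these shares was not tested. The background itself moved with the setting: 0.607% with the slide row as a block, 3.35% without gp120 C, 3.81% with no filter on dim probes and 7.42% without TAT B, where 0, 0, 1 and 2 of the 8 brightest probes were called. Among treated arrays, row 1 held letter A and row 2 letters B and C. With the row as a block, letter A and the row can be told apart only through the 2 controls, both in row 1. The MFAP5 signal was lower in letter A than in B by 1.56 ± 0.22 (SE) and higher in B than in C by 1.69 ± 0.26. Both passing MFAP5 probes were called, the second at an adjusted p of 0.0249. The third called probe was the FN1 probe nearest the start of the transcript (adjusted p = 0.0371). The MFAP5 call was lost with the slide row as a block (adjusted p = 0.0772), in the deposited value table (0.058) and without gp120 C (0.0533). Over its other alternatives its adjusted p ran from 0.00672 to 0.0479. For the 7 other brightest probes adjusted p ran from 0.128 (FBLN1) to 0.905 (FBN1).

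FN1 encodes fibronectin, and it was the best sampled of the 8 genes, with 13 probes well above background on all arrays. At its brightest probe (chrUn.004.3:797204-797263, plus strand) the signal was 6.05 and 6.40 on control A and B, 6.88, 7.02 and 6.71 on TAT A, B and C, and 6.11, 6.94 and 6.50 on gp120 A, B and C. Every TAT array lay above both controls, while gp120 A lay between the controls. The TAT difference was 0.64 ± 0.29 (SE; 95% interval -0.03 to 1.31), or 1.56-fold, and the gp120 difference was 0.29 ± 0.29 (95% interval -0.38 to 0.96). The gp120 difference was 0.08 without gp120 B, 0.12 without control A, 0.47 without control B and 0.50 without gp120 A. All 13 FN1 probes were above 0 for both proteins, from 0.39 to 1.15 for TAT and from 0.27 to 1.46 for gp120. These 13 probes read the same RNA on the same arrays and are not separate measurements of the treatment.

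The FN1 difference depended on where in the transcript a probe lay. Of the probes shown here, each with a sense frame free of stop codons, the first is nearest the start of the transcript, the second is where the gp120 difference was largest, and the last is nearer the 3′ end:
FN1, from base 883: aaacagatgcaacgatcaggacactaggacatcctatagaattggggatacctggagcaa
FN1, from base 6245: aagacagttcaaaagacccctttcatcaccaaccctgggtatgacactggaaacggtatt
FN1, from base 7286: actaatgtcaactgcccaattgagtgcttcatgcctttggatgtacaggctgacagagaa
These 3 probes hold 45.0% G and C each. The probe from base 883 spans chrUn.004.3:733817-736881 and the one from base 7286 spans chrUn.004.3:796397-796809, longer than a probe of 60 bases, so each crosses an exon boundary. The probe from base 6245 (chrUn.004.3:786555-786611) is listed in the files for 2 Ensembl transcripts, against 3 for each of the other 12 FN1 probes.

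At base 883 the signal was -2.23 and -0.34 on control A and B, -0.74, -0.06 and -0.01 on TAT A, B and C, and -1.62, 0.42 and -0.45 on gp120 A, B and C. Control A and gp120 A were the lowest there, and control B lay within the range of the TAT arrays. At base 6245 it was -1.20 and 0.25 on the controls, 1.13, 0.09 and 0.63 on TAT, and 0.48, 1.75 and 0.74 on gp120, with all 3 gp120 arrays above both controls. At base 7286 it was 4.77 and 5.88, then 5.98, 6.25 and 6.05, then 5.25, 6.56 and 6.02. The TAT differences at these probes were 1.01 ± 0.69, 1.09 ± 0.55 and 0.77 ± 0.44, and the gp120 differences 0.74 ± 0.69, 1.46 ± 0.55 and 0.62 ± 0.44. At the last FN1 probe, from base 7963, they were 0.39 ± 0.27 and 0.29 ± 0.27. The gp120 differences did not rise evenly toward the start, with 0.55, 0.55 and 0.41 at bases 1143, 3467 and 4993.

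The controls themselves also parted along FN1. Control A minus control B was -1.89 at base 883, -1.45 at base 6245, -1.11 at base 7286 and 0.20 at base 7963. Control A was thus far below control B near the start of the transcript and level with it at the end. The difference between the 2 controls at base 883 was larger than either difference from control.

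**Figure D2:**
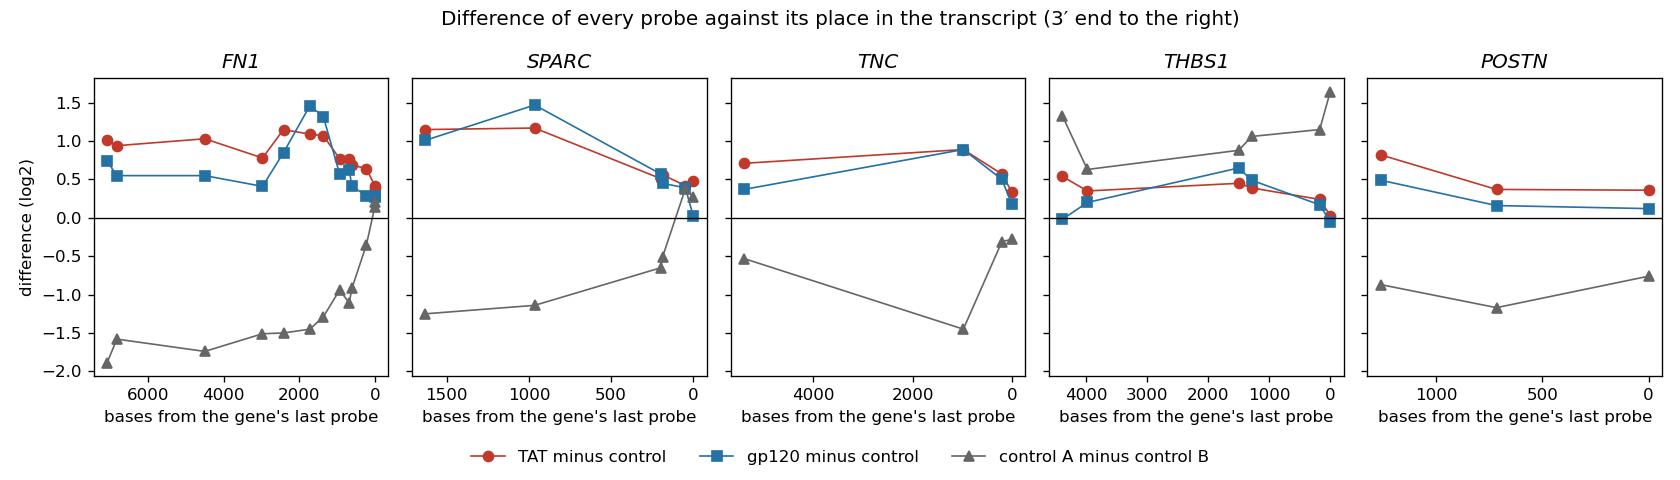
Difference (y axis, log2) of every kept probe of FN1, SPARC, TNC, THBS1 and POSTN against its distance in bases from the gene's last probe (x axis, with the 3′ end at the right), for TAT minus control, gp120 minus control and control A minus control B. In SPARC the TAT and gp120 differences are larger away from the 3′ end, as is the TAT difference in FN1. The FN1 gp120 difference is largest at the probe from base 6245. In both genes the 2 controls part away from the 3′ end as well, by -1.89 at the farthest FN1 probe. In THBS1 control A lies above control B at every probe.

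SPARC encodes a collagen- and calcium-binding matricellular protein that counters cell spreading. Its brightest probe (chr7:62635445-62635504, minus strand) read 6.05 and 6.69 on control A and B, 6.86, 6.85 and 6.93 on TAT A, B and C, and 6.42, 7.33 and 7.07 on gp120 A, B and C. The 3 TAT arrays were close together (6.88 ± 0.04, SD, n = 3) and above both controls, while gp120 A fell between the controls. The differences were 0.51 ± 0.32 (SE; 95% interval -0.23 to 1.26) for TAT and 0.57 ± 0.32 (95% interval -0.18 to 1.32) for gp120. The control pair, 0.65 apart, spread more than either difference. Without control A the differences were 0.19 and 0.25, and without control B 0.83 and 0.89.

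All 6 SPARC probes were above 0 for both proteins, from 0.42 to 1.17 for TAT and from 0.02 to 1.47 for gp120. As for TAT in FN1, the probes away from the 3′ end gave the larger values. The probe nearest the start of the transcript, which spans chr7:62640193-62641969, is shown because it lies farthest from the 3′ end:
SPARC, from base 451: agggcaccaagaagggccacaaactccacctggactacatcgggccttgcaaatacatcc
It read -0.29 and 0.96 on the controls, 1.32, 1.22 and 1.91 on TAT, and 0.67, 1.91 and 1.45 on gp120. TAT arrays were all above the controls here, and gp120 A was between them. The differences were 1.15 ± 0.48 for TAT and 1.01 ± 0.48 for gp120, and control A was 1.25 below control B. At base 1115 the gp120 difference reached 1.47 ± 0.48 with every gp120 array above both controls. The 95% intervals of that probe lay above 0 for TAT (0.06 to 2.29) and gp120 (0.36 to 2.59), before any adjustment.

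The SPARC probes from base 1883 and base 1893 overlap by 50 bases and differ at 2 of them, G25A and G36A, counted from 1 at the first shared base with the base of the first probe given first. The stretch around both differences is shown with the differing bases in capitals:
SPARC, probe from base 1883: gctgtcaccaGagatctttcaGtcgctagc
SPARC, probe from base 1893: gctgtcaccaAagatctttcaAtcgctagc
In spite of these changes the pair gave like differences, 0.51 and 0.56 for TAT and 0.57 and 0.45 for gp120. Their shared target makes them 1 measurement of SPARC, read with 2 designs.

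TNC encodes tenascin-C, a large hexameric glycoprotein that loosens cell adhesion and is laid down in wounds. At its brightest probe (chr8:109590338-109590397, minus strand) the signal was 6.21 and 6.52 on control A and B, 7.04, 6.91 and 6.86 on TAT A, B and C, and 6.41, 7.35 and 6.84 on gp120 A, B and C. Every TAT array was above both controls, and gp120 A was again between them. The TAT difference was 0.57 ± 0.30 (SE; 95% interval -0.12 to 1.26), or 1.48-fold, and the gp120 difference was 0.50 ± 0.30 (95% interval -0.19 to 1.19), or 1.41-fold. Without gp120 B the latter was 0.26. All 4 TNC probes were above 0 for both proteins, from 0.34 to 0.89 for TAT and from 0.18 to 0.89 for gp120. At the probe from base 5121 control A lay 1.45 below control B, so the spread of the controls there exceeded both differences.

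THBS1 encodes thrombospondin-1, which activates latent TGF-beta and binds cell-surface receptors. The brightest of its 6 probes (chr10:35129028-35129087, plus strand) read 6.26 and 5.10 on control A and B, 6.24, 5.93 and 5.61 on TAT A, B and C, and 6.02, 6.15 and 5.39 on gp120 A, B and C. Control A was the highest and control B the lowest of all 8 arrays, with the treated arrays between them. The differences were 0.24 ± 0.40 (SE) for TAT and 0.17 ± 0.40 for gp120. Without control A they were 0.82 and 0.75, and without control B -0.33 and -0.41, so their direction rested on which control was used. Across the 6 probes they ran from 0.03 to 0.54 for TAT and from -0.05 to 0.65 for gp120. Control A lay above control B at every THBS1 probe, by 0.63 to 1.64, the reverse of TNC, POSTN and the upstream FN1 probes. The probe nearest the transcript's start (chr10:35116577-35116636) is shown as the counterpart of those of FN1 and SPARC:
THBS1, from base 784: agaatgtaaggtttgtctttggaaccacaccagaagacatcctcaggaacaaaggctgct
It read -0.37 and -1.70 on control A and B, -0.46, -0.39 and -0.65 on TAT, and -0.81, -0.75 and -1.62 on gp120.

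POSTN encodes periostin, which binds fibronectin, tenascin-C and collagen and is induced by TGF-beta. At its brightest probe (chr12:23891174-23891233, plus strand) the signal was 2.77 and 3.54 on control A and B, 3.66, 3.52 and 3.35 on TAT A, B and C, and 2.76, 4.07 and 3.01 on gp120 A, B and C. TAT B and TAT C fell between the controls, and gp120 spanned the widest range, with gp120 B highest of all arrays and gp120 A lowest. The differences were 0.36 ± 0.42 (SE) and 0.12 ± 0.42, within their errors. Without control A they were -0.02 and -0.26, without control B 0.74 and 0.50, and without gp120 B the gp120 difference was -0.27. The 3 probes gave 0.36 to 0.82 for TAT and 0.12 to 0.49 for gp120. The probe farthest from the 3′ end (chr12:23873599-23873658) had the largest difference for both proteins and is shown for that reason:
POSTN, from base 1575: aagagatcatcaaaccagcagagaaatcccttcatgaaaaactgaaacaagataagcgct
It read -2.19 and -1.32 on the controls, -0.87, -0.84 and -1.11 on TAT, and -1.78, 0.01 and -2.02 on gp120, so that each TAT array lay above both controls. The TAT difference there was 0.82 ± 0.58.

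**Figure D3:**
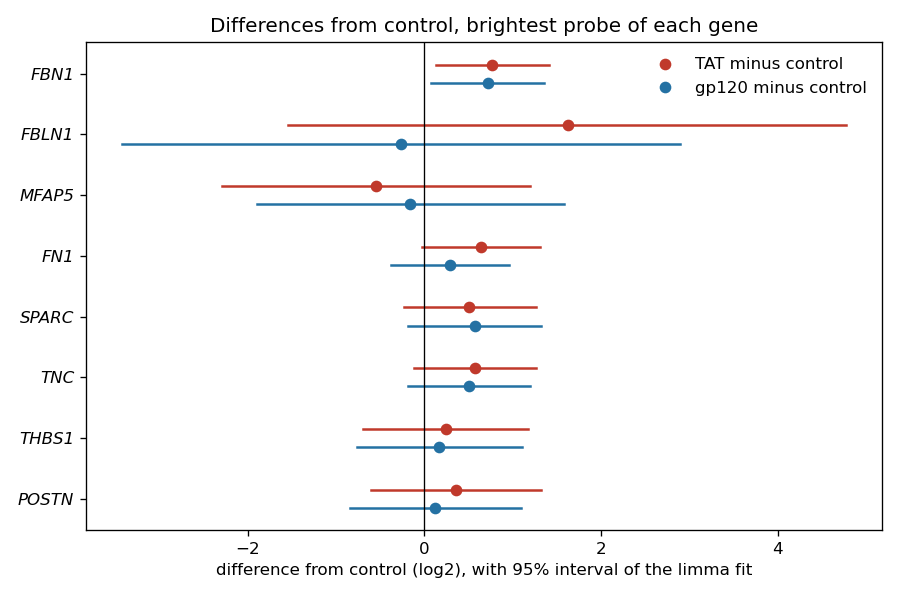
Differences from control (x axis, log2) of the brightest probe of each gene after TAT and after gp120, with 95% intervals from the limma fit over 8 arrays. FBN1 is the gene whose intervals stay above 0 for both proteins (0.13 to 1.41 and 0.08 to 1.35), and those of FBLN1 and MFAP5 are the widest.

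The values of other genes are given beside the growth of the differences away from the 3′ end. For 2363 genes with probes at least 1000 bases apart, the difference at the upstream probe minus that at the downstream probe was computed. For TAT against control its median was -0.04, and the 10th and 90th percentiles were -0.43 and 0.34. FN1 stood at 0.62, SPARC at 0.67, THBS1 at 0.50, POSTN at 0.46 and TNC at 0.37. For gp120 the percentiles were -0.81 and 0.58, and the values were 0.99 for SPARC, 0.44 for FN1, 0.37 for POSTN, 0.20 for TNC and 0.02 for THBS1. These values come from the differences on which the genes were chosen, so their place among other genes is a description and supports nothing. For control A minus control B the same percentiles were -0.69 and 0.86, and FN1 (-2.09) and SPARC (-1.52) lay below the lower. THBS1 (-0.30), TNC (-0.24) and POSTN (-0.11) lay between the percentiles. Reverse transcription was primed with oligo dT at the poly(A) end, per the labels. The labels used here give no measure of RNA integrity, and the part of RNA length in these values was not tested.

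Pairing arrays of the same letter gave unlike pictures for the 2 proteins. TAT A exceeded control A at 6 of 8 brightest probes, with a median of 0.83, beside 45.2% of all probes and a median of -0.05. TAT B exceeded control B at 7 of 8, with a median of 0.32, beside 46.6% and -0.03. The genes were chosen with these same-letter pairs in view, so the pair values are a description. In letter A, FBN1 (0.99), POSTN (0.89), FN1 (0.83), TNC (0.83) and SPARC (0.82) were higher with TAT, and MFAP5 (-0.73) was lower. In letter B, THBS1 (0.82), FBN1 (0.63) and FN1 (0.62) led, while SPARC (0.16) and POSTN (-0.01) differed little.

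For gp120 the letters were the other way round. Gp120 A minus control A had a median of 0.16, from -0.24 (THBS1) to 0.37 (SPARC), beside -0.01 over all probes. Gp120 B minus control B had a median of 0.73, beside 0.01 over all probes, of which 51.0% were above 0. There THBS1 (1.04), FBN1 (1.01) and TNC (0.83) were highest among the genes above background on both arrays. At the brightest probe, FBN1 was above 0 in all 4 pairs with control (0.99, 0.63, 0.27 and 1.01), as were FN1 (0.83, 0.62, 0.06 and 0.54), SPARC (0.82, 0.16, 0.37 and 0.63) and TNC (0.83, 0.39, 0.20 and 0.83). For gp120 A minus control A, 28 of 37 kept probes were above 0, beside 48.9% of all probes. Among those below 0 were FN1 from base 7963 (-0.21), SPARC from base 2080 (-0.55) and TNC from base 6097 (-0.14). Both proteins were compared with the same 2 control arrays, so their differences are not independent of each other. Gp120 B was read in the other scan than control B and lay in the other slide row. Protein, scan and row therefore cannot be told apart in that pair, nor scan and letter between the gp120 pairs. TAT B also lay in the other slide row than control B, so protein and row cannot be told apart there.

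The TAT and gp120 arrays overlapped at the brightest probes of these genes, as at most probes on the array. Every TAT array lay above every gp120 array at 0 of 8 brightest probes and at 1 of 37 kept probes. The background was 3.33%, so these counts are near the share over all probes and do not show that the proteins act alike. The median TAT minus gp120 difference was 0.07, from -0.40 ± 0.67 (MFAP5) to 1.88 ± 1.22 (FBLN1), and the 95% interval for FN1 was -0.25 to 0.95. By letter the median was 0.68 in A (7 of 8 genes higher with TAT), -0.41 in B (1 of 8, FN1) and 0.12 in C (5 of 8). The order of the 2 proteins thus differed between the pairs. TAT A and gp120 A came from the same scan, while gp120 B and gp120 C were scanned apart from TAT B and TAT C. Letter and scan therefore cannot be told apart between A and the other 2 pairs.

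**Figure D4:**
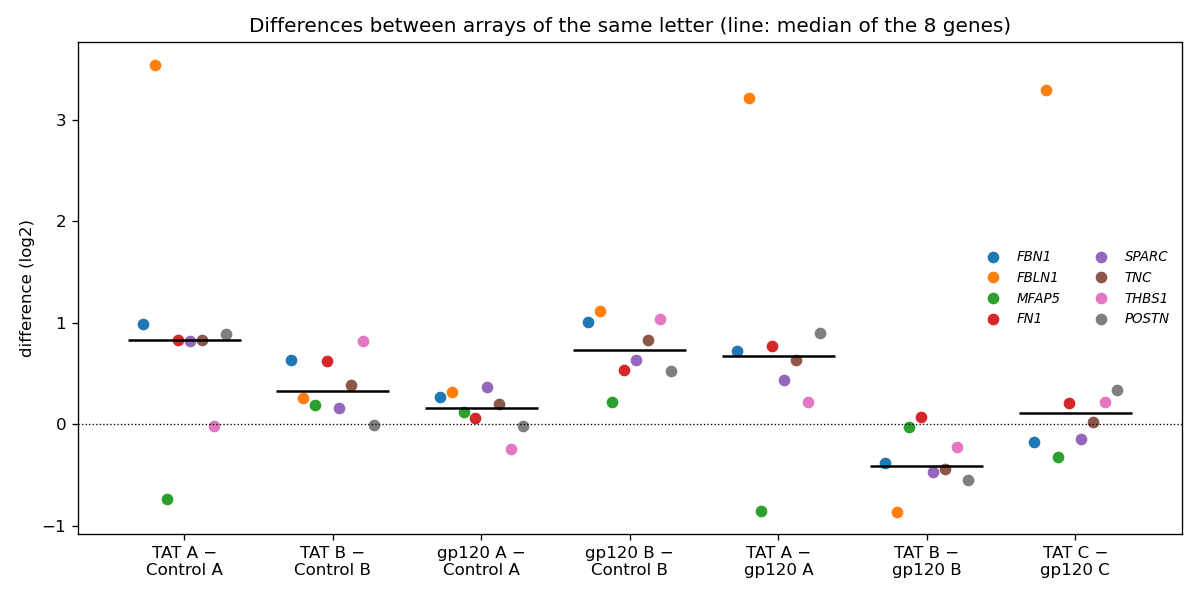
Difference (y axis, log2) between arrays of the same letter for the brightest probe of each gene, with the median of the 8 genes as a line. The medians are 0.83 and 0.32 for TAT against control (letters A and B), 0.16 and 0.73 for gp120 against control, and 0.68, -0.41 and 0.12 for TAT against gp120 (A, B and C).

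The scan moved with the gp120 values. Within scan 2, which held both controls, the 3 TAT arrays and gp120 A, the median TAT difference over the 8 genes was 0.54 and the median gp120 difference 0.05, from 1 gp120 array. There FBN1 stood 0.27 above control with gp120, SPARC 0.05, TNC 0.05, FN1 -0.12, POSTN -0.40 and MFAP5 -0.49, while THBS1 (0.34) and FBLN1 (0.93) were higher than over all 3 gp120 arrays (0.17 and -0.27). Scan 1 held gp120 arrays alone, so for gp120 B and gp120 C protein and scan cannot be told apart. Within slide row 1 TAT A minus the controls had a median of 0.60 and gp120 A minus the controls 0.05. TAT minus gp120 had a median of -0.14 within row 2, while row 1 holds the letter A arrays of both proteins.

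Stromal marker genes moved with the TAT values. Summed over the fibroblast and stroma markers (among them COL1A1, COL1A2, COL3A1, DCN, LUM and THY1), in units of each array's 75th percentile, the level was 162 to 165 on the controls, 216 to 300 with TAT and 158 to 202 with gp120. TAT A had the highest sum, 300.0. The 10 kept markers of this list had TAT differences above 0, with a median of 0.72, and 9 of 10 had gp120 differences above 0, with a median of 0.20. Over all probes, 46.6% were above 0 for TAT and 50.2% for gp120. Sums over pericyte and smooth muscle markers ran from 140 to 291 on controls, 221 to 382 with TAT and 175 to 459 with gp120, with the B array highest in each group, and 7 of 8 of these markers were above 0 for both proteins (medians 0.59 for TAT and 0.43 for gp120). Müller glia markers summed to 345 to 488, 357 to 393 and 417 to 470. Of the 7 that were kept, 1 was above 0 for TAT (median -0.26) and 5 for gp120 (median 0.03). Sums for microglia and macrophage markers were 347 to 472, 387 to 449 and 329 to 466. The part of these cell types in the values of the 8 genes was not tested.

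Over the 8 arrays some of the genes varied together, without a clean split from the rest. This is a description of arrays that share a slide and letters, and the genes were chosen on differences between these same arrays. TNC correlated with SPARC (Pearson's r 0.93), FBN1 (0.91), FN1 (0.91) and POSTN (0.84). FBN1 and POSTN had 0.56, below the 0.63 of FBLN1 and THBS1. THBS1 had r between -0.22 (SPARC) and 0.63 (FBLN1) with the others, and MFAP5 between -0.44 (FBLN1) and 0.46 (POSTN). Among 10617 other genes well above background on all 8 arrays, those most like each gene had r of 0.921 to 0.983, which is a high value picked from many. FN1 was most like MAP3K4 (0.973), MAP3K6 (0.968) and SPARCL1 (0.948), and SPARC most like DUSP18 (0.979), LTBP3 (0.973) and DDAH2 (0.968). TNC was most like TEAD4 (0.965), METRN (0.951) and FHL2 (0.949), FBN1 like GALNT14 (0.937), IQCC (0.931) and METRN (0.921), and POSTN like FAM171A1 (0.983), ABCG1 (0.941) and SEC23A (0.939). For MFAP5 they were NFATC2IP (0.975), RAPGEF4 (0.960) and NNAT (0.953), for THBS1 WDR33 (0.973), RPL17 (0.954) and PPP6R1 (0.941), and for FBLN1, whose values rest on TAT A, ME1 (0.948) and SST (0.945).

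Beyond the 8, 55 further genes of microfibrils, elastic fibres and matricellular proteins were listed, of which 51 had a probe and 43 passed the background filter. For TAT, 33 of 43 brightest probes were above 0 and 10 below, with a median of 0.40, beside 46.6% above 0 and a median of -0.02 over all probes. For gp120 29 were above and 14 below, with a median of 0.19, beside 50.2% and 0.00. None of the 43 passed limma's adjusted threshold in either comparison, as for every probe on the array. By letter 8 of 43 (18.6%) passed, beside 13.2% of all probes, a share that fell to 0.607% with the slide row as a block: MFAP2, LTBP1, EFEMP2, ADAMTSL4, THBS3, TNR, SPOCK2 and CCN3.

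The highest TAT differences of the list were those of MFAP2, a fibrillin-binding partner of MFAP5 (1.67 ± 1.46, SE), EFEMP1, fibulin-3 (1.48 ± 0.75), SMOC1, a SPARC relative (1.30 ± 1.95), and THBS2, a relative of THBS1 (1.21 ± 0.68). EFEMP1 read -1.57 and -1.31 on the controls, 0.36, -0.87 and 0.63 on TAT A, B and C, and -0.17, 2.32 and 0.16 on gp120 A, B and C. All 6 treated arrays lay above both controls, with gp120 B the highest. MFAP2 read -4.35 and -0.86 on control A and B, -1.68, -0.07 and -1.05 on TAT, and -3.91, 1.04 and -1.65 on gp120. In MFAP2 the B array was the highest of each group, and its letter test passed (adjusted p = 0.0288).

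The lowest TAT differences were those of MATN2, matrilin-2 (-1.42 ± 0.76), ADAMTSL2, which binds fibrillin (-0.54 ± 0.31), COMP, the thrombospondin of cartilage (-0.46 ± 0.29), and TNR, the tenascin of the nervous system (-0.42 ± 0.59). COMP read -3.64 and -4.08 on the controls, -4.56, -4.24 and -4.15 on TAT, and -4.94, -4.26 and -4.31 on gp120. All 6 treated arrays of COMP lay below both controls. Over all probes, every TAT array lay below both controls at 8.66%, and every gp120 array at 7.67%. The MATN2, TNR and COMP probes were near background, and were above it on 5, 6 and 7 arrays.

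For gp120 the highest were SMOC1 (3.01 ± 1.95), FBLN2, fibulin-2 (2.40 ± 0.92), EFEMP1 (2.21 ± 0.75) and TNXB, tenascin-X (1.26 ± 0.79). The SMOC1 and FBLN2 probes were above background on 7 arrays and the TNXB probe on 6. FBLN2 read -4.62 and -4.84 on the controls, -3.81, -4.73 and -3.61 on TAT, and -4.42, -0.84 and -1.73 on gp120 A, B and C. Its gp120 B and gp120 C arrays, those of scan 1, stood far above the others. The lowest for gp120 were COMP (-0.64 ± 0.29), ADAMTSL2 (-0.47 ± 0.31), CCN3 (-0.35 ± 0.90) and HMCN1, hemicentin-1 (-0.33 ± 0.37). Without control B the median of the list was 0.93 for TAT and 0.62 for gp120, without control A 0.17 and -0.07, and with the slide row as a block 0.16 and 0.08. With the scan as a block the gp120 median was -0.13.

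**Figure D5:**
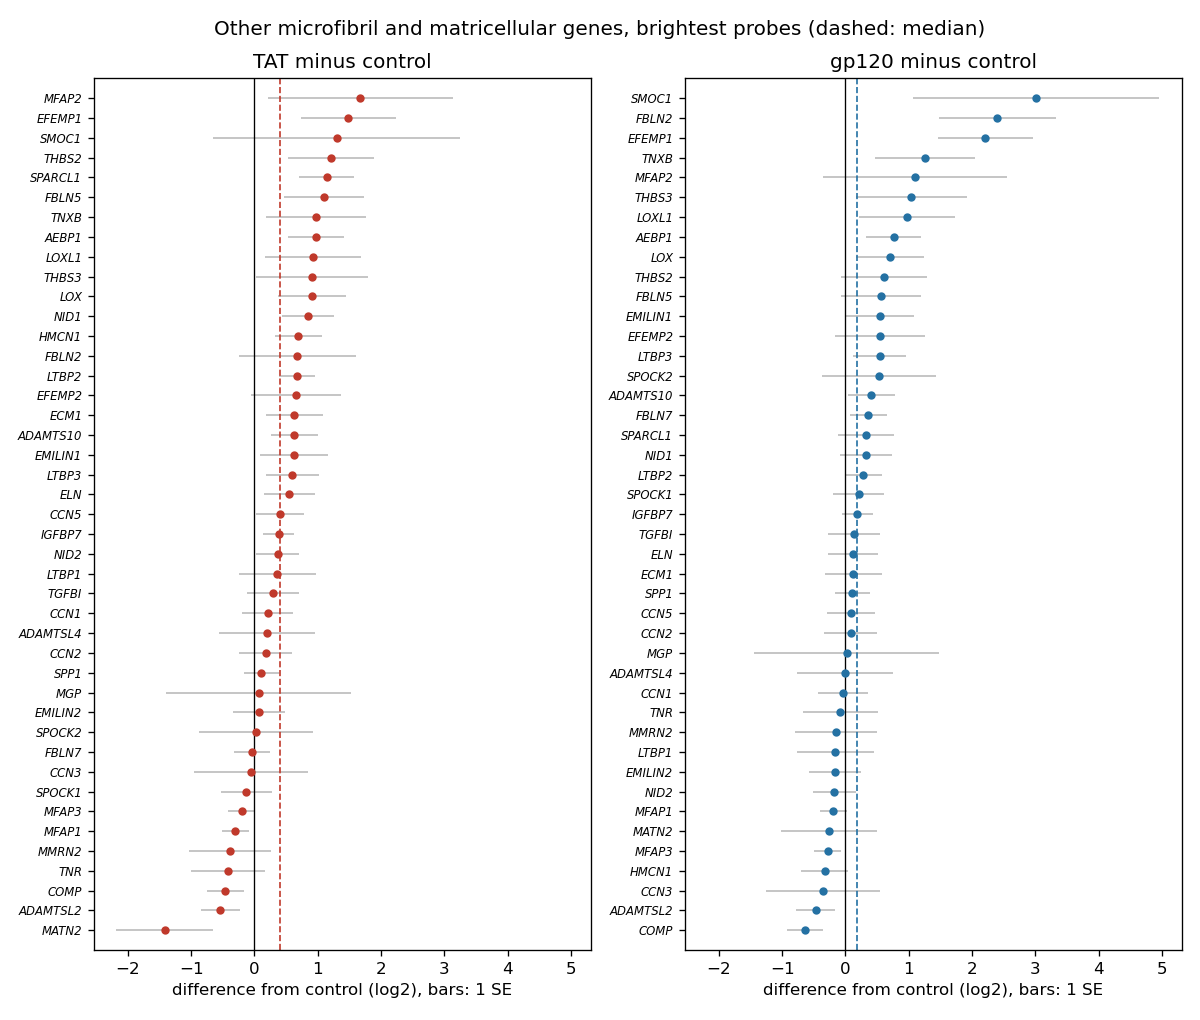
Differences from control (x axis, log2; bars 1 SE of the limma fit) of the 43 other microfibril and matricellular genes, by their brightest probe, for TAT at the left and gp120 at the right, each sorted by size, with the median as a dashed line. The medians are 0.40 and 0.19; MATN2 is lowest for TAT and SMOC1 highest for gp120.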

How the data were processed

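RNA of 8 bovine cultures was labelled with Cy3 and read on 1-colour Agilent arrays, 1 per sample. Per the file headers, the authors made the intensity values of the deposited scanner files with Agilent Feature Extraction 11.5.1.1 under protocol GE1_1105_Oct12. That step included background subtraction and spatial detrending within an array and no scaling between arrays. A deposited table gives log2 values by gene name, with no account of its making in the sources used here. Column medians were -3.20 and -3.30 (control A and B), -3.26, -3.21 and -3.25 (TAT) and -3.25, -3.18 and -3.33 (gp120). Against the scanner values it had r of 0.993 to 0.999 and the same direction, and no centring per gene. Once each column was shifted, 98.0% (gp120 B) and 97.8% (gp120 C) of values lay within 0.02 of the scanner's, against 8.5% to 15.2% on the other arrays. What was done to those 6 columns stays unknown, and the table was used as an alternative alone.

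Flagged and control spots were left out, repeated spots averaged, and each array's 75th percentile subtracted on the log2 scale. The background filter (well above background throughout at least 1 group) kept 31198 of 51282 probes, and the 31153 complete ones were fitted. Limma 3.58.1 (R 4.3.3) was fitted over all 8 arrays with the group as the term, and with the letter added for the F test of letters, adjusted by Benjamini-Hochberg at 0.05. The script was tested on simulated data. Deviations from the group mean went together between TAT and gp120 arrays of letters A, B and C (r 0.648, 0.433 and 0.707). Control A had r of 0.6 with TAT A and 0.575 with gp120 A. Letters were therefore taken to pair the arrays. With 2 controls, the deviation of control B is that of control A with the sign reversed. Control B had r of 0.326 with TAT B and 0.33 with gp120 B, where control A had -0.326 and -0.33. It also had 0.407 with TAT C and 0.367 with gp120 C. These values are no separate measure of how control B pairs. The number of arrays limits the precision.

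Named are the 8 genes with all probes, each with its brightest probe as the lead, the 4 highest and 4 lowest genes of the list per comparison with control, and the 3 genes with the highest r to each member, of which 1 for FBLN1 is not reported here. Genes and lists were chosen with earlier results of these data known. Of 38 probes, 34 matched the bovine RefSeq table by accession. Alternatives were normexp with an offset of 50, quantile scaling, another percentile base, both background filters, row, scan and letter as blocks, the value table, other probes per gene, and each array left out. The probe nearest the transcript start was added after seeing the data. Positions are those of the files, and no genome was used.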

Additional observations from a re-analysis of the deposited data

How the results depend on the processing

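The median TAT difference of the 8 brightest probes stayed above 0 under its 19 alternatives (0.42 to 0.75), as did that of gp120 (0.05 to 0.49, lowest with the scan as a block and without gp120 B). TAT minus gp120 ran from -0.09 (without gp120 A) to 0.51 with the scan as a block. The replicate block, with the letter as a term, gave medians of 0.53, 0.37 and 0.07 and 0 called probes in each comparison (1291, 2317 and 3195 at an unadjusted p under 0.05), and changed no call of these genes. With the probe nearest the transcript start, chosen after seeing the data, the medians were 0.74, 0.43 and 0.21. Tested on the deposited value table, 4 names were called for TAT against control, 3 for gp120 and 15 for TAT against gp120. With each array left out, 0 to 2 probes were called for TAT (2 without control A), 0 to 1 for gp120 (1 without control A) and 0 for TAT against gp120. The median of the further genes then ran from 0.17 to 0.93 for TAT and from -0.07 to 0.62 for gp120, highest without control B, and was -0.13 for gp120 with the scan as a block. For the letters, 0 brightest probes were called with the slide row as a block and in the value table, 3 of 37 over all kept probes, and 0 to 2 with each array left out (0 without gp120 C; FBLN1 and MFAP5 without TAT B). The cause of these shifts was not tested. Signals near background limit FBLN1, and 2 control arrays limit every difference from control.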
